A study of Mus musculus with 6 samples.

Results

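Oligodendrocyte lineage genes and Lhfpl3 were followed in the embryonic mouse cortex with and without ESET, the product of Setdb1, which methylates lysine 9 of histone H3. The set holds 9 genes, which are Olig1, Olig2, Nkx2-2, Sox10, Pdgfra, Gpr17, Lhfpl3, Bcas1 and Mbp. They were read through every probe set that the platform annotation gives to one of these genes alone, which came to 23 probe sets of 45037, and 0 further probe sets shared a member with another gene. The tissue was dorsal telencephalon, the part of the forebrain that forms the cortex, dissected at E14.5 from C57BL\6 embryos labelled male. There were 3 wild-type arrays (WT 1 to WT 3) and 3 arrays of the conditional knockout (cKO 1 to cKO 3), in which ESET is deleted with Emx2Cre. Emx2 is a gene of dorsal forebrain progenitors. Whether the wild-type embryos carried Cre is not given in the sources used here, so an effect of Cre and one of the deletion cannot be told apart. The series' design speaks of 3 embryos per genotype, without saying whether each array holds one, so the p-values measure the spread between these samples, which may be partly technical.

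Oligodendrocytes form the myelin sheaths of the central nervous system. Their precursors are specified under Olig2, Olig1 and Nkx2-2, take on Sox10 and the growth factor receptor Pdgfra as they begin to divide and migrate, pass through a stage marked by Gpr17 and Bcas1, and end in cells that make myelin basic protein (Mbp). In the mouse forebrain the first precursors come from the ventral telencephalon and enter the cortex from there, while the cortex itself makes such cells later. Lhfpl3 encodes a membrane protein with 4 transmembrane spans of the LHFPL family, and its transcript is commonly used as a marker of oligodendrocyte precursors in the postnatal brain.

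Of the member genes, Lhfpl3 was higher in cKO and Olig2 lower on every probe set of each, with all 3 cKO arrays on one side of all 3 WT arrays. Neither passed after adjustment over all probe sets. Some but not all Mbp probe sets were separated too, with cKO higher. Groups did not overlap for 13.5% of all probe sets. The sequence around the annotated start of Lhfpl3 and of Olig2 is shown here. It is taken from RefSeq on build GRCm38.p6, with 250 bases before the start and 50 from the start on, plus strand, 5′ to 3′. The Lhfpl3 window is chr5:22745804-22746103 and the Olig2 window is chr16:91225300-91225599. Capitals mark CANNTG, the E-box read by basic helix-loop-helix factors such as Olig1 and Olig2, and TATAAA, both searched on either strand.
Lhfpl3: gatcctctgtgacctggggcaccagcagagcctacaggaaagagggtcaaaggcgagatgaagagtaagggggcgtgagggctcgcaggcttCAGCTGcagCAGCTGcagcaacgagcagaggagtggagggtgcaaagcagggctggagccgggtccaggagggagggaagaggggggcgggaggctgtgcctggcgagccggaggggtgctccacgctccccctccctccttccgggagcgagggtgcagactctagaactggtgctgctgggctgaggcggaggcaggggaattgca
Olig2: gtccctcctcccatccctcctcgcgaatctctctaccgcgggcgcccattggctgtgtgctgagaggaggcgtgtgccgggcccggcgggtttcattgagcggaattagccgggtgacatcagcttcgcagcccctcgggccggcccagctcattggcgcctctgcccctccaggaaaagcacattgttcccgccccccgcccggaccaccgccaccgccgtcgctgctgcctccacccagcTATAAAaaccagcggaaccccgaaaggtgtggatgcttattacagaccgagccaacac
The Lhfpl3 window held 2 E-boxes, both CAGCTG, which began 158 and 149 bases before the start. CANNTG occurred in 72.3% of 32851 RefSeq windows of the same length, CAGCTG in 16.3%, and 2 or more copies of CAGCTG in 1.90%. The Olig2 window held 0 E-boxes and 1 copy of TATAAA, which began 8 bases before the start and was found in 13.6% of windows. The C-followed-by-G pair occurred 12 times for Lhfpl3 and 25 times for Olig2, against a median of 7. A match of letters is a description and not evidence of binding.

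The arrays numbered 3 stood apart in both groups. Hba-x, an embryonic globin gene, was at 20068 (WT 3) and 19913 (cKO 3), where the remaining 4 arrays ran from 270 to 513. WT 3 went against its male label, with the X-inactivation transcript Xist at 17294 and the Y-linked Eif2s3y at 22.2, and cKO 3 carried both, at 8811 and 961. Fold changes without both of these arrays are given below for Olig2, Nkx2-2, Lhfpl3, the brightest Pdgfra probe set, the Sox10 probe sets that moved with them and Mbp 1425263_a_at. Markers chosen for the dorsal telencephalon were present, with 0 of 11 measured below an intensity of 16 on all arrays. The neuron factors Neurod6 and Bcl11b were at mean intensities of 16973 and 12039 in WT and 19388 and 9574 in cKO. Setdb1 itself had 3 probe sets. The brightest had a mean of 1126 ± 81.9 in WT and 633 ± 115 in cKO (SD, n = 3), without overlap, and limma gave adjusted p = 0.237. The others were at -1.14 without overlap and at -0.44 with overlap. Which exons were deleted is not stated in the labels, and a probe set outside them would check nothing.

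Intensities below are the deposited values on a linear scale. Fold changes are differences of group means of log2(intensity + 16), cKO minus WT, with the standard error (SE) of limma's moderated model, and a probe set was called at a Benjamini-Hochberg adjusted p below 0.05 over all 45037 probe sets. The added 16 shrinks the fold changes of dim probe sets. Limma called 0 of the 23 member probe sets, where it called 124 of all probe sets, or 0.275%. Of those 124, 101 were higher (0.224%) and 23 lower (0.0511%) in cKO, and with arrays centred on their medians 97 were higher and 41 lower. Before adjustment, p was under 0.05 for 3 member probe sets with cKO higher and 1 with cKO lower, where it was for 4.57% and 3.33% of all probe sets, or 7.9% together. Groups did not overlap for 6 of the 23, 5 with cKO above WT and 1 with cKO below, against 7.47% and 6.07% of all probe sets, or 13.5% together. The 5 are 2 probe sets of Lhfpl3 and 3 of Mbp, so they are not independent of each other. The median fold change of the members was -0.07, beside 0.02 over all probe sets. The lineage genes were dim, with 13 of the 23 probe sets below 16 on at least 1 array, which limits what can be seen of them. In RNA from whole tissue, fewer cells of a type and less RNA per cell cannot be told apart.

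**Figure D1:**
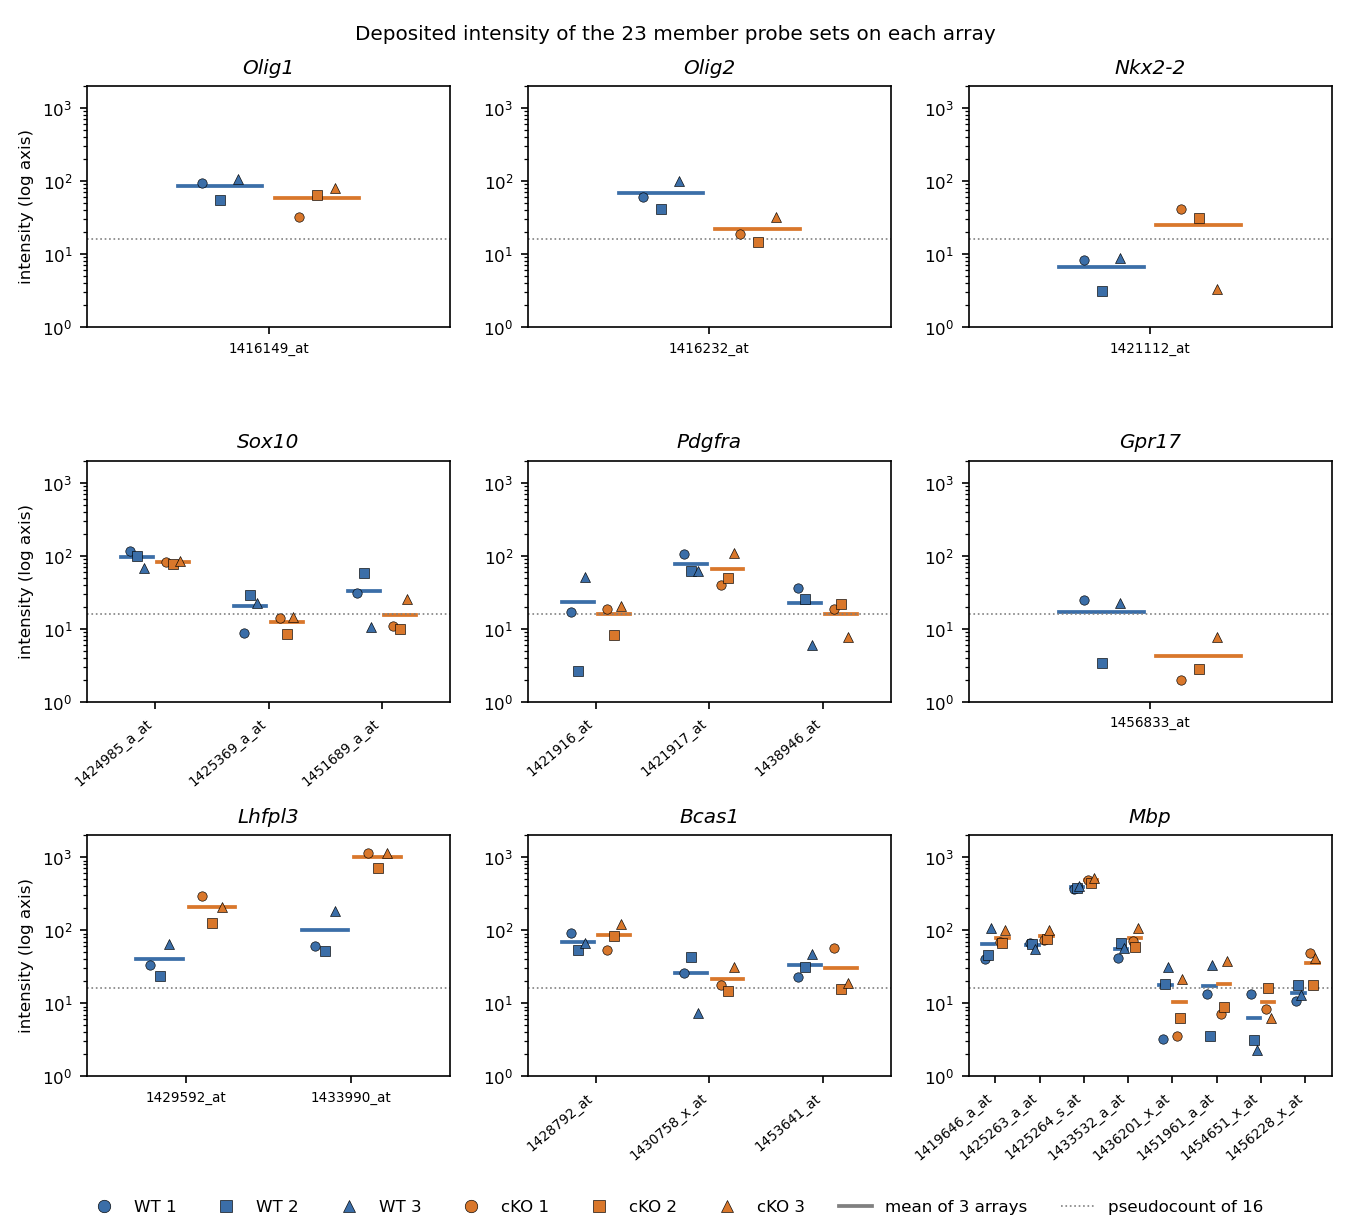
Each panel shows the deposited intensity (log axis) of every probe set of one member gene on each array, with WT in blue, cKO in orange, a symbol per array number and a bar at the mean of 3 arrays. Both Lhfpl3 probe sets have all cKO points above all WT points, Olig2 has the reverse, and many probe sets of Sox10, Pdgfra, Gpr17 and Mbp lie around the dotted line at 16.

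Olig2, the helix-loop-helix factor required to specify the lineage, read 59.8, 41.6 and 101 on WT 1, WT 2 and WT 3, and 18.9, 14.6 and 32.4 on cKO 1, cKO 2 and cKO 3. Every cKO array lay below every WT array, with WT 3 the highest of its group and cKO 3 of its own. The mean went from 67.6 ± 30.6 to 22.0 ± 9.26 (SD, n = 3), which is -1.1 as a log2 fold change (SE 0.31, 95% interval -1.84 to -0.37). It did not pass in limma (adjusted p = 0.377, and 0.126 to 0.658 over the alternatives). The pseudocount sets its size, since the fold change was -1.56 with a pseudocount of 1 and -0.59 with 64. Without WT 3 it was -0.83, and without both arrays numbered 3 it was -1.02.

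Ventral telencephalon, where the first precursors of the forebrain arise, could be part of a dissected sample. Of 18 marker genes written for it, 16 had a probe set of their own. Their summed intensity ran from 4614 on WT 2 to 8221 on WT 3 over the WT arrays, and from 5195 to 5966 over the cKO arrays. The sum on WT 2 was thus below every cKO array, while Olig2 on WT 2, at 41.6, was above every cKO array. For each marker the log2 value on WT 3 was taken minus the mean of the other WT arrays. The median of these differences was 0.90, where that of Olig2 was 0.83, and for cKO 3 the figures were 0.29 and 0.56. The median log2 value of all probe sets was 7.01 on WT 3, against 6.89 and 6.74 on WT 1 and WT 2. Only Gsx1 of these markers was below 16 on all arrays. The brightest, Zic1, a zinc finger factor of the septum and also of the meninges, read 1844, 1023 and 2702 in WT and 1014, 638 and 1355 in cKO, with WT 3 and cKO 3 the highest of their groups, as for Olig2. The groups overlapped, with a fold change of -0.84 (SE 0.42, limma adjusted p = 0.736), and its other probe set was at -0.92 (SE 0.36), also with overlap. The second brightest, Gad1, which makes the transmitter of inhibitory neurons, was at 0.48 (SE 0.17, adjusted p = 0.519) without overlap, and its other probe set at 0.30 with overlap. Over the groups the marker list had a median fold change of 0.09. Of its genes, 3 were higher without overlap and 0 lower, where 15.5% of all genes did not overlap in either direction. Limma called 0 of the markers. Its unadjusted p was under 0.05 for 2 that were higher and 0 that were lower, where it was for 4.74% and 3.8% of all genes. RNA from whole tissue does not show which cells made these markers. The part of ventral tissue in the Olig2 difference was not tested.

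Olig1, the neighbour and close relative of Olig2, which lies 41.1 kb away on chromosome 16, read 93.7, 55.1 and 106 in WT and 31.7, 64.1 and 81.2 in cKO. The groups overlapped. Its fold change was -0.45 (SE 0.33, 95% interval -1.24 to 0.34), with limma adjusted p = 0.868. It was -0.16 without cKO 1, -0.30 without WT 3 and -0.68 without WT 2. Nkx2-2, a homeodomain factor that promotes differentiation of precursors, was below 16 on all WT arrays, at 8.22, 3.16 and 8.83. It read 42.0 on cKO 1, 30.8 on cKO 2 and 3.34 on cKO 3, so cKO 3 lay within the WT values. Its fold change was 0.73 (SE 0.41, limma adjusted p = 0.784), 1.21 without cKO 3 (adjusted p = 0.206), 1.27 without both arrays numbered 3 and 0.41 without cKO 1.

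Sox10, the factor that maintains precursor identity and drives myelin genes, had 3 probe sets, all overlapping between the groups. The brightest read 117, 100.1 and 68.1 in WT and 81.8, 76.2 and 83.9 in cKO, a fold change of -0.18 (SE 0.20, 95% interval -0.66 to 0.31). Both others were below 16 on 3 or 4 arrays, with fold changes of -0.32 and -0.54. Limma adjusted p over the 3 ran from 0.870 to 0.939. The sizes rested on single arrays. The brightest was at -0.03 without WT 1, -0.36 without WT 3 and -0.39 without both arrays numbered 3. The probe set at -0.54 was at -0.18 without WT 2, -0.92 without WT 3 and -1.14 without both arrays numbered 3, and the one at -0.32 ran from -0.57 without WT 1 to -0.14 without WT 2. Each was lower in cKO in every alternative it could be fitted in, 15 for each of the dimmer ones and 16 for the brightest, with 0 past the threshold.

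Pdgfra, the receptor for platelet-derived growth factor that drives division of precursors, is also made by meningeal and other mesenchymal cells. Its brightest probe set read 105, 61.6 and 61.0 in WT and 39.2, 49.3 and 109 in cKO. The groups overlapped, with cKO 3 above every other array and cKO 1 and cKO 2 below all of WT. The fold change was -0.23 (SE 0.35, 95% interval -1.07 to 0.61, limma adjusted p = 0.964), -0.58 without cKO 3 and -0.69 without both arrays numbered 3, while without cKO 1 it was 0.0059. The summed intensity of 18 meninges and mesenchyme markers was 3366 on cKO 3, 1030 and 1172 on cKO 1 and cKO 2, and 1140 to 1830 in WT. Of these markers 0 were below 16 on all arrays, and the second brightest, the fibrillar collagen gene Col3a1, read 835 on cKO 3 against 78.3 to 229 elsewhere. The brightest, the proteoglycan gene Bgn, was not high on cKO 3, at 276 against 285 and 289 on cKO 1 and cKO 2 and 251 to 408 in WT. Their part in the Pdgfra values was not tested. Both other Pdgfra probe sets had group means between 15.8 and 23.3, with fold changes of -0.13 and -0.20.

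Gpr17, an orphan G protein-coupled receptor of committed precursors, read 24.3, 3.34 and 22.4 in WT and 1.97, 2.79 and 7.72 in cKO. All cKO arrays were below 16, and so was WT 2, which lay within the cKO range. The fold change was -0.63 (SE 0.31, 95% interval -1.38 to 0.11, limma adjusted p = 0.727). Without WT 2 it was -0.98. With a pseudocount of 1 it was -1.57 and with 64 it was -0.23, so its size is set by the pseudocount.

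**Figure D2:**
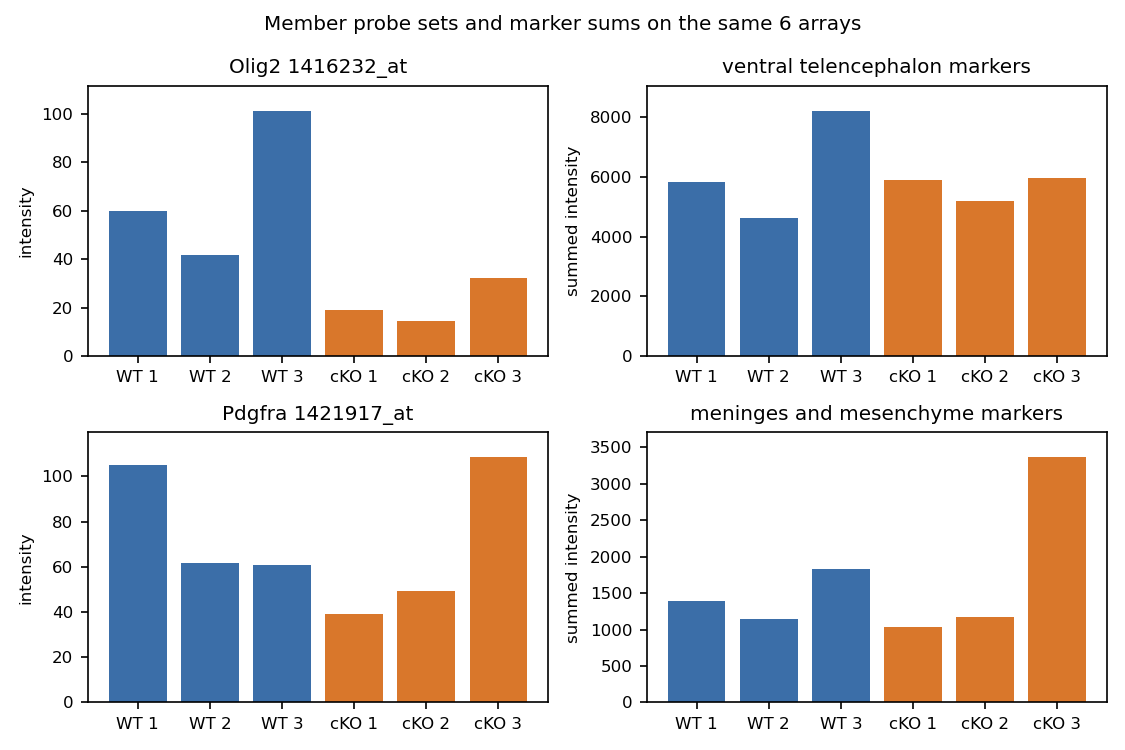
Bars show the intensity of the Olig2 probe set and the brightest Pdgfra probe set beside the summed intensity of 16 ventral telencephalon and 18 meninges and mesenchyme markers, on the same 6 arrays and on linear axes from 0. Olig2 and the ventral markers are both highest on WT 3, and Pdgfra and the mesenchymal markers are both highest on cKO 3. On WT 2 the ventral sum, 4614, is the lowest of the 6 arrays, while Olig2, at 41.6, is above every cKO array. Among WT arrays the mesenchymal sum is highest on WT 3, at 1830, where Pdgfra is lowest, at 61.0. The part of the markers in either member was not tested.

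Lhfpl3 had the largest difference among the members. Probe set 1433990_at read 60.6, 51.3 and 186 on WT 1, WT 2 and WT 3, and 1130, 722 and 1133 on cKO 1, cKO 2 and cKO 3. Probe set 1429592_at read 33.6, 23.8 and 64.7 in WT and 292, 127 and 208 in cKO. On both, every cKO array lay above every WT array and WT 3 was the highest of WT. The first went from a mean of 99.3 ± 75.2 to 995 ± 237 (SD, n = 3), a ratio of mean intensities of 10.02 and a log2 fold change of 3.29 (SE 0.44, 95% interval 2.22 to 4.35). The second went from 40.7 ± 21.3 to 209 ± 82.7, a ratio of 5.13 and a log2 fold change of 1.98 (SE 0.37, 95% interval 1.1 to 2.86).

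Whether the Lhfpl3 difference counted as a call depended on the setting. Over all 45037 probe sets limma gave adjusted p = 0.0642 for the first probe set and 0.153 for the second, short of the threshold. With 1 probe set per gene, the brightest, which leaves 18193 features, of which 0.627% were called, the first passed (adjusted p = 0.0420). It passed in 9 of 17 alternatives, with adjusted p from 0.00980 to 0.251, and the second in 0 of 15. The fold change of the first stayed between 2.76 and 3.79 over these alternatives. WT 3 lay 1.49 above the other WT arrays on this scale, and without it the fold change was 3.79 (adjusted p = 0.0309). Of the 6 fits that left out 1 array, this was the only one that passed, the others giving 0.167 to 0.251. Without both arrays numbered 3 the fold change was 3.68 and did not pass (adjusted p = 0.177). Lhfpl3 was placed in this set with an earlier result on these arrays known, so its call with 1 probe set per gene is not independent evidence.

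**Figure D3:**
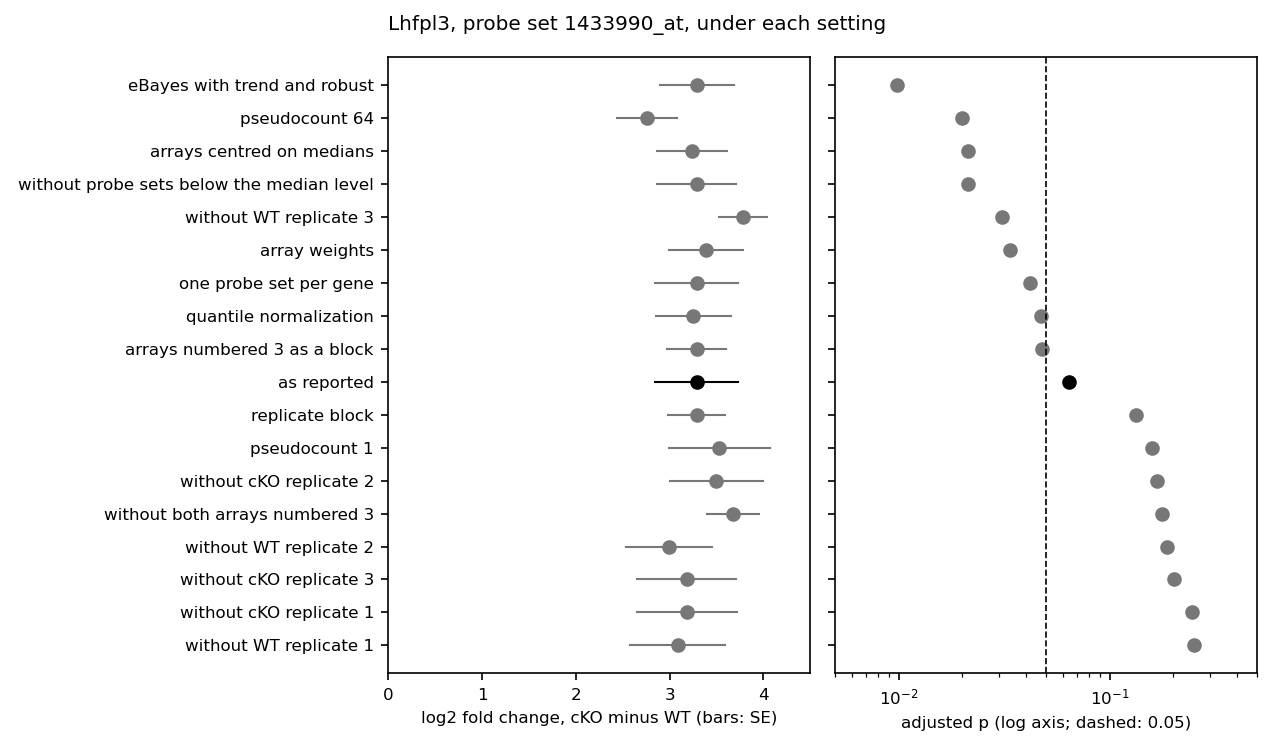
The left panel shows the log2 fold change of Lhfpl3 probe set 1433990_at with its SE and the right panel its adjusted p (log axis, dashed line at 0.05) as reported and under 17 alternatives. The fold change runs from 2.76 to 3.79, while the adjusted p lies on both sides of the line, from 0.00980 to 0.251.

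The 2 most mature members were read by 11 probe sets. Bcas1, a protein of premyelinating cells, had 3, which all overlapped between the groups. Its brightest read 90.4, 53.8 and 65.8 in WT and 53.4, 82.8 and 122 in cKO, a fold change of 0.21 (SE 0.29, limma adjusted p = 0.958), and the others were at -0.07 and -0.17. Each of the 3 changed sign under at least 2 alternatives, so no direction is given.

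Mbp had 8 probe sets, of which 7 were higher and 1 lower in cKO, with limma adjusted p from 0.551 to 0.999. The brightest, 1425264_s_at, read 371, 381 and 402 in WT and 488, 449 and 516 in cKO. The groups did not overlap, and the mean went from 385 ± 15.7 to 485 ± 33.6 (SD, n = 3), a fold change of 0.32 (SE 0.14, 95% interval -0.01 to 0.65, adjusted p = 0.645). Probe set 1425263_a_at read 67.9, 65.2 and 56.1 in WT and 72.6, 75.3 and 100.1 in cKO, again without overlap, at 0.31 (SE 0.17), but at 0.19 without cKO 3 and 0.12 without both arrays numbered 3. Probe set 1456228_x_at read 10.8, 17.8 and 13.0 in WT and 49.0, 17.8 and 41.1 in cKO, where WT 2 and cKO 2 were nearly equal. The other 5 overlapped, at -0.32 to 0.39. The Mbp locus also makes golli transcripts from an upstream start, which are found in cells outside the lineage, and the annotation used here does not say which probe sets read them.

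**Figure D4:**
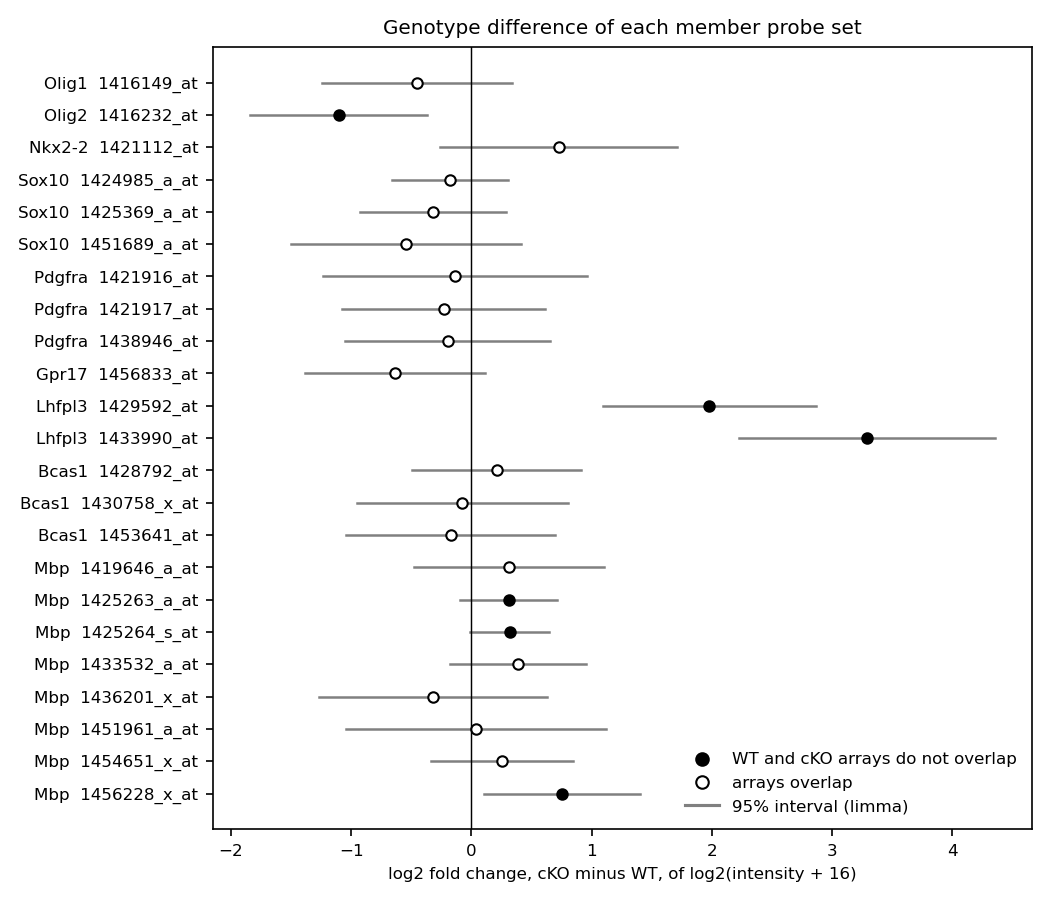
Points show the log2 fold change, cKO minus WT, of each of the 23 member probe sets and lines its 95% interval from limma, with filled points where WT and cKO arrays do not overlap. The intervals of Olig2, both Lhfpl3 probe sets and Mbp 1456228_x_at leave out 0, and 0 of the 23 passed after adjustment.

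Lhfpl3 has relatives, of which 4 had probe sets of their own. Lhfp, now named Lhfpl6, was lower in cKO on its only probe set, at 648, 560 and 679 in WT and 230, 209 and 278 in cKO. It fell from 629 ± 61.7 to 239 ± 35.4 (SD, n = 3), a log2 fold change of -1.34 with SE 0.17, and passed in limma over all probe sets (adjusted p = 0.0485). It passed in 8 of 17 alternatives, with adjusted p from 0.00705 to 0.274, and in 0 of the 6 fits that left out 1 array, where the fold change ran from -1.45 to -1.26. Lhfpl4, which takes part in inhibitory synapses, was at 0.19 (SE 0.19) on its brightest probe set, from 1268 ± 41.3 to 1474 ± 333. Lhfpl2 was at 0.03 (SE 0.25), and another of its 4 probe sets was at -0.39 without overlap. Lhfpl5, a protein of hair cell mechanotransduction, was at 0.01 with a 95% interval of -1.37 to 1.39, which is too wide to place it. Over all genes by their brightest probe set, limma called 0.291% higher and 0.0824% lower in the same fit.

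On chromosome 5 the Lhfpl3 gene spans 530 kb (22746054 to 23275597, GRCm38.p6). The 3 nearest measured genes on each side were Orc5, Reln and Slc26a5 toward lower coordinates and 5031425E22Rik, Kmt2e and Srpk2 toward higher ones. Reln, which encodes the secreted protein reelin of Cajal-Retzius cells, lies 401 kb from Lhfpl3. It read 6286, 6198 and 6552 in WT and 2864, 2507 and 3197 in cKO, a fold change of -1.15 (SE 0.15) that missed the threshold over all probe sets (limma adjusted p = 0.0561) and passed with 1 probe set per gene (0.0266), in 6 of 17 alternatives in all. Orc5, a subunit of the origin recognition complex that lies between them, was at 0.03 (SE 0.14), from 1030 ± 39.2 to 1058 ± 94.7. On the other side, 5031425E22Rik, the histone methyltransferase family gene Kmt2e and the kinase gene Srpk2 were at -0.04, -0.08 and -0.21, each with overlapping groups. Slc26a5 was below 16 on all arrays. Among the neighbours, Reln was the only gene whose groups did not overlap, where 15.5% of all genes did not. It differed in the direction opposite to Lhfpl3.

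**Figure D5:**
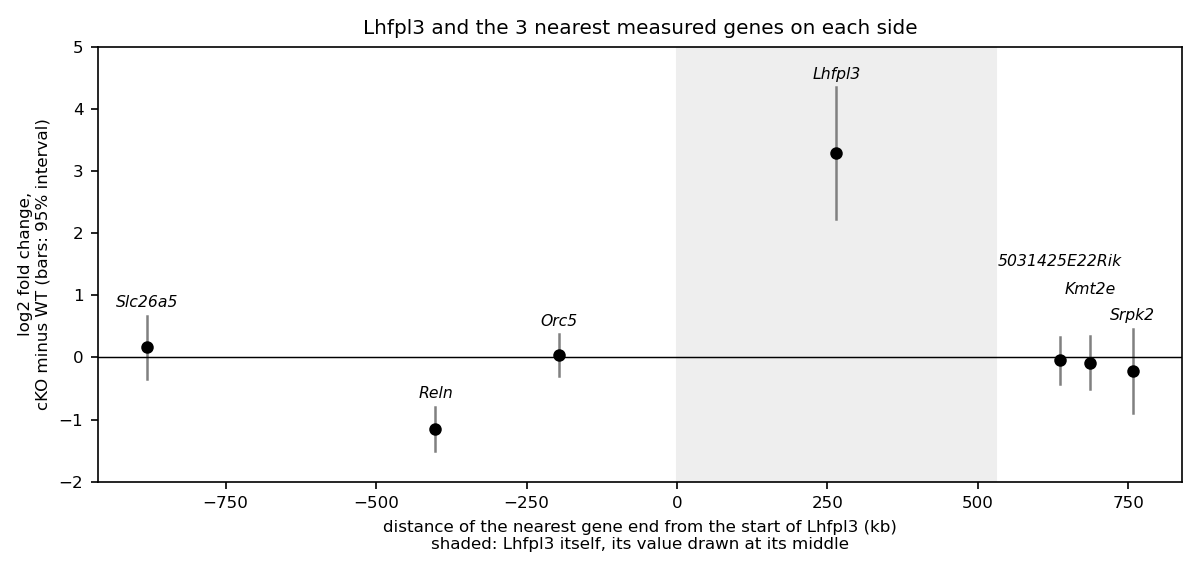
Points show the log2 fold change, cKO minus WT, of Lhfpl3 and the 3 nearest measured genes on each side against distance in kb from the Lhfpl3 start, with the span of Lhfpl3 shaded and 95% intervals from limma. Lhfpl3 is at 3.29 and Reln at -1.15, and the intervals of the other 5 genes include 0.

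Profiles over the 6 arrays were compared by the mean absolute difference of log2 values, each gene taken relative to its WT mean, among 9097 genes at or above the median level. The genes nearest to Lhfpl3 were Tgif1 at 0.37, Gm13238 at 0.56 and Stag3 at 0.64. Tgif1, a homeodomain repressor, was at 174 ± 27.2 in WT and 2082 ± 130 in cKO, and Stag3, a subunit of meiotic cohesin, at 61.9 ± 28.5 and 978 ± 203. The genes nearest to Olig2 were the adhesion molecules Lsamp and Cdh4, both at 0.14, and Ttc28 at 0.17. Lsamp read 357, 280 and 457 in WT and 147, 160 and 194 in cKO, with WT 3 and cKO 3 the highest of their groups, as for Olig2. Genes were picked here for their likeness on these same arrays, so shared patterns follow from the selection and are not separate evidence.

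Other genes of the pathway were taken from 4 lists, each gene by its brightest probe set. The lists name a role in the lineage, and RNA from whole tissue does not show whether lineage cells or others made these transcripts. Limma called 0 genes in each of the 4 over all probe sets. Of 19 measured genes of oligodendrocyte specification, 3 had an unadjusted p under 0.05 with cKO higher and 1 with cKO lower, where 4.74% and 3.8% of all genes did. Their median fold change was 0.04, beside 0.01 over all genes, and -0.01 with centred arrays. Sox9, a factor of the switch from neurons to glia, read 562, 419 and 893 in WT and 2385, 1834 and 2794 in cKO. The cKO arrays were all above the WT arrays, with a fold change of 1.92 (SE 0.31, adjusted p = 0.102), and it passed in 4 of 17 alternatives. Another Sox9 probe set was at 1.95 without overlap and the other at 0.47 with overlap. Sox6, which holds precursors back from maturing, was at 0.59 (SE 0.14, adjusted p = 0.298), and its other 3 probe sets at 0.16 to 0.36. Etv5, a target of fibroblast growth factor signalling, was at -0.84 (SE 0.23, adjusted p = 0.357).

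Of 22 measured genes of the precursor surface and matrix, 0 were higher and 3 lower at that unadjusted level, and the median fold change was -0.07, which was 0.08 without both arrays numbered 3. The 3 were Cspg5, a chondroitin sulfate proteoglycan, which read 343, 352 and 350 in WT and 206, 237 and 229 in cKO (-0.60, SE 0.13, limma adjusted p = 0.240), Tnr, which encodes tenascin-R (-0.67, SE 0.24), and Pcdh15 (-0.46, SE 0.19). None of the 3 passed in any alternative. Another probe set of Pcdh15 was at 0.88 with overlapping groups.

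Of 27 measured genes of committed precursors and myelin, 1 was higher and 2 lower at that level, with a median of -0.02, which was 0.01 after quantile normalization. Gal3st1, which makes the myelin lipid sulfatide, read 84.5, 51.8 and 86.4 in WT and 188, 148 and 294 in cKO (1.30, SE 0.29, limma adjusted p = 0.240). Ermn, a cytoskeletal protein of myelinating cells, read 73.4, 86.9 and 70.0 in WT and 19.8, 53.6 and 9.56 in cKO (-1.21, SE 0.36, adjusted p = 0.423). Tmem163, a zinc transporter, was at -0.68 (SE 0.14, adjusted p = 0.186) and passed in 1 of 17 alternatives. On these probe sets, groups did not overlap for any of these 3 genes, which were named for the smallest p of their list. Another Ermn probe set was at -0.59 with overlap. Over the list, 1 gene was higher and 3 lower without overlap, where 15.5% of all genes did not overlap in either direction.

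The last list covers PDGF and Shh signalling, which supply the mitogen and the ventral signal of the lineage. It also holds genes of fibroblast, epidermal and insulin-like growth factor and chemokine signalling, so its counts are not of PDGF and Shh alone. Of its 27 measured genes, 3 were higher and 2 lower at that level, with a median of -0.06. Gli1, a transcription factor and target of Shh signalling, read 33.0, 52.2 and 28.3 in WT and 60.8, 86.6 and 74.0 in cKO (0.75, SE 0.22, limma adjusted p = 0.393). Fgfr3, a fibroblast growth factor receptor, was at 0.63 (SE 0.20, adjusted p = 0.448), from 1983 ± 50.4 to 3138 ± 668, and Spry2, an inhibitor of receptor signalling, at -0.95 (SE 0.21, adjusted p = 0.232), from 336 ± 54.0 to 167 ± 37.4, while another Spry2 probe set was at 0.28.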

How the data were processed

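Total RNA of each sample, 250 ng, was labelled with biotin and read on 1 single-colour array per sample, per the labels' protocols. The authors deposited linear intensities, 1 per probe set and array, made with the Affymetrix Expression Console, per the submitters' processing notes. The sources used here do not give its version or how probes were summarised. Array medians differed by 0.33 on the log2 scale, below the 0.5 at which they would have been centred.

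Intensities were taken to log2(intensity + 16) and fitted with limma 3.58.1 in R 4.3.3 (lmFit, eBayes, genotype as the only term) on all 45037 probe sets, with Benjamini-Hochberg adjustment. The fit was tested on simulated data. Median intensities ran from 91.1 to 119 and 16.1% to 20.3% of probe sets were below 16, with 3 arrays per group limiting the precision. The platform annotation gave 1 gene to 34945 probe sets, several to 932 and none to 9160. Named were all members, Setdb1, the 3 list genes with the smallest p, the 2 brightest genes of each marker list, the nearest neighbours of Lhfpl3 and the nearest profiles. Members, lists, rule and alternatives were chosen with earlier results of these data known. Alternatives were quantile normalization, median centring, pseudocounts of 1 and 64, a filter on dim probe sets, trend and robust eBayes, array weights, 1 probe set per gene, blocks for the replicate number and for the arrays numbered 3, and leaving out arrays. Promoter windows are from RefSeq, GRCm38.p6.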

Additional observations from a re-analysis of the deposited data

How the results depend on the processing

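Over all probe sets, 124 were called as reported, 257 with trend and robust eBayes, 252 without dim probe sets, 205 with a pseudocount of 64 and 48 with 1. The count was 19 to 36 in the fits without 1 array and 8 without both arrays numbered 3, where fewer arrays lower the power. The replicate numbers were not taken to pair samples. Deviations of same-numbered arrays from their group means correlated at 0.08, 0.19 and 0.41. WT 2 and WT 3 correlated best with the same-numbered cKO array. WT 1 correlated best with cKO 2, at 0.11 against 0.08 with cKO 1, so these values do not settle whether samples were paired. With the replicate number as a block, 7 probe sets were called, 0 of them members, and Lhfpl3 was at 3.29 (adjusted p = 0.133).

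Member probe sets called went from 0 to 1, in each case Lhfpl3 1433990_at, with array weights, centring, quantile normalization, trend and robust eBayes, a pseudocount of 64, the filter on dim probe sets, 1 probe set per gene and the arrays numbered 3 as a block. Over the fits without 1 array the count was 0 to 1. The specification list went from 0 to 1 with centring and with a pseudocount of 64. The Lhfpl family list went from 1 to 0 with a pseudocount of 1, with the replicate block and without both arrays numbered 3, and was 0 in each of the fits without 1 array.

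Of 356 values of single member probe sets under alternatives, 20 changed sign, 327 kept sign and call and 9 gained a call. None of those that changed sign was called. Values that changed sign follow, with the full range over the fits without 1 array. Mbp 1451961_a_at was at -0.056 with array weights, -0.012 with centring, -0.0087 with quantile normalization, -0.0012 without both arrays numbered 3 and -0.35 to 0.39 without 1 array. Pdgfra 1421916_at was at 0.075 with a pseudocount of 1, 0.23 without both arrays numbered 3 and -0.58 to 0.34 without 1 array. Over the same fits Pdgfra 1438946_at ran from -0.56 to 0.060 and Pdgfra 1421917_at from -0.58 to 0.0059. Bcas1 1428792_at was at -0.058 without both arrays numbered 3 and -0.033 to 0.46 without 1 array. Bcas1 1430758_x_at ran from -0.44 to 0.23 without 1 array, and Bcas1 1453641_at was at 0.16 without both arrays numbered 3 and -0.55 to 0.055 without 1. Dim signals limit what these probe sets can show, and the cause of these changes was not tested.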

Other observations

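Markers of other cell types were read in the same way, each gene by its brightest probe set, and limma called 0 genes of these lists over all probe sets. Over all genes, its unadjusted p was under 0.05 for 4.74% with cKO higher and 3.8% with cKO lower. Of 10 microglia markers, 0 had an unadjusted p under 0.05 in either direction, the level used for the counts that follow, with a median fold change of -0.11 and Csf1r, the receptor these cells need to survive, at 541 ± 74.7 in WT and 522 ± 110 in cKO (SD, n = 3). Tyrobp, an adaptor of microglial receptors, was at 0.08 (SE 0.15). Of 8 pericyte markers, 2 were higher and 2 lower, with a median of -0.17 and Rgs5 at -0.60 (SE 0.18, limma adjusted p = 0.406) and Notch3 at 0.21 (SE 0.27). Of 11 astroglia markers, 2 were higher and 2 lower, with a median of -0.13 and Aldoc at 0.27 (SE 0.15). In the fit with 1 probe set per gene, limma called 1 astroglia marker, where it called 0.627% of all genes. Of 10 neural crest and Schwann precursor markers, 1 was higher and 1 lower, with a median of 0.16, Fabp7, which radial glia also make, at -0.08 (SE 0.18) and Ednrb at 0.10 (SE 0.13). Of 11 dorsal telencephalon markers, 0 were higher and 3 lower, with a median of -0.19. Neurod6 was at 0.20 (SE 0.19) and Bcl11b at -0.33 (SE 0.17), both with overlap. The other Bcl11b probe sets were at -0.55, -0.61 and -0.49, the last 2 without overlap. Of 11 erythroid markers, 1 was higher and 0 lower, with a median of 0.14, and their summed intensity was 69521 on WT 3 and 74244 on cKO 3 against 11312 to 17216 on the other arrays, with the embryonic globin gene Hbb-y brightest at -0.01 (SE 0.65). Of 18 meninges and mesenchyme markers, 1 was higher and 0 lower, with a median of 0.21, which was -0.12 without both arrays numbered 3, and with Bgn at -0.17 (SE 0.20) and Col3a1 at 0.26 (SE 0.82).

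Of 14 diencephalon markers, 1 was higher and 2 lower, with a median of 0.06. The one that was higher was Lhx9, a LIM homeodomain factor also made in the medial cortex, at 259, 272 and 348 in WT and 568, 601 and 569 in cKO (0.96, SE 0.16, limma adjusted p = 0.118 as reported and 0.0620 with 1 probe set per gene). It passed in 3 of 17 alternatives. Of its other 3 probe sets, 2 gave 1.14 and 1.03 without overlap and 1 gave 0.50 with overlap. Lef1, a factor of Wnt signalling, was lower without overlap at -0.49 (SE 0.17, limma adjusted p = 0.512), and its other probe set was at -0.21 with overlap.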
